A study of Mus musculus with 21 samples.

Results

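Hematopoietic stem cells (HSCs) isolated at day 21 after 3 administrations of 5-fluorouracil (5-FU) were compared with HSCs of mice given 3 administrations of phosphate-buffered saline (PBS). The libraries were chosen by their labels alone and make up 6 of the 21 libraries of the series, with 3 in each of the 2 groups. The mice were wild-type C57BL/6, 10 weeks old at the first injection, and received 150 mg/kg 5-FU or PBS intraperitoneally 3 times at an interval of 21 days. Each library was made from 3000 to 3500 bone marrow HSCs (CD150+ CD48- Flt3- Lineage- Sca-1+ c-Kit+ cells) of 1 of 3 independent experiments. The 5-FU HSCs were taken 20 days and the PBS HSCs 5 days after the last injection, so the day 21 mice were also 15 days further from their last injection and correspondingly older. No PBS group was isolated at day 21, and treatment, time since injection and age cannot be told apart in this comparison. Only for cells taken 5 days after 5-FU, the study widened the c-Kit gate, and for these it left the Mac-1 antibody out of the lineage stain. This concerns the day 6 libraries used below for comparison. The question was what remained changed once the acute response to the third administration had passed.

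5-FU is a fluoropyrimidine that blocks thymidylate synthesis and enters RNA and DNA, which kills cycling progenitors in the marrow. HSCs are mostly quiescent and survive, enter the cell cycle within days while blood cells are replaced, and then return toward quiescence. Repeated 5-FU is used as a proliferative stress, because the same HSC pool has to cycle again after each injection. Background of this kind applies to every group of genes described here and is not a result of these libraries.

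The 6 libraries held 25285301 to 31724107 counted reads, with 25285301 to 26745138 in the day 21 group and 27023725 to 31724107 in the PBS group. Between 13376 and 13716 gene symbols had a count in each, and 3 counts, the floor used for a gene at 0, stood for 0.0946 to 0.119 CPM (counts scaled to the library total). Spearman correlations across genes were 0.984 to 0.987 between libraries of the same group and 0.978 to 0.983 between groups, and no 2 libraries were duplicates. Levels are given as normalized read counts on a single scale, the TMM scale over all 21 libraries, and compare libraries for a given gene, not different genes. Kit, Ly6a, Slamf1, Procr, Mecom, Hlf and Fgd5, defining HSC markers, were detected in all 6 libraries. Of the 2 genes whose proteins were gated out, Cd48 had 38.9 to 209 normalized counts at day 21 and 64.7 to 112 under PBS, and Flt3 had 585 to 751 and 709 to 858, with overlapping groups for both. Several markers of B, T, NK and monocyte lineages were low in both groups. Pax5, Cd3e, Cd8a and Ncr1 were at 0 in all 6 libraries, and Cd79a, Csf1r and C1qa did not exceed 2.8, 9.2 and 10.2 normalized counts. Cd68, also a marker of the monocyte and macrophage lineage, was not near 0. It was higher at day 21 without overlap, with its values given below. Other lineage lists were not as low. At day 21 and under PBS, the megakaryocyte and platelet list summed to 4888 to 5216 and 5740 to 6190 CPM. The erythroid list summed to 3301 to 3653 and 3675 to 3993 CPM. The neutrophil list stood at 616 to 674 and 526 to 618 CPM, and the mast cell list at 602 to 649 and 521 to 545 CPM. In a bulk library, a change in the make-up of the sorted cells and a change in RNA per cell cannot be told apart.

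Few genes passed the adjusted threshold at day 21 in edgeR. With 3 libraries a group, this does not show that few genes differed. For 21.4% of the genes the groups did not overlap, with 11% higher and 10.4% lower at day 21. By edgeR's quasi-likelihood test with Benjamini-Hochberg adjustment over 12632 genes, 6 genes (0.0475%) had an adjusted p under 0.05, with 5 genes higher (0.0396%) and 1 gene lower (0.00792%) than under PBS. Gem, Neo1, Arap3, Gimap4 and Plac8 rose and Sgsm1 fell. At an adjusted p under 0.1 the counts were 23 genes higher (0.182%) and 48 lower (0.38%). The unadjusted p was under 0.05 for 783 genes higher (6.2%) and 942 lower (7.46%). In DESeq2, run as an alternative on the same counts, 592 genes (4.69%) had an adjusted p under 0.05, 226 higher (1.79%) and 366 lower (2.9%), so the number of genes called depended strongly on the test. The median log2 fold change over all genes was 0.000794 and 50.1% of the genes were above 0. For the same genes between day 21 and day 6 after the third administration, a comparison that shares the day 21 libraries, 1089 of 12553 genes were higher at day 21 (8.68%) and 1361 lower (10.8%) in edgeR. The sorting gate also differed between these groups, so gate and time cannot be told apart there.

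**Figure D1:**
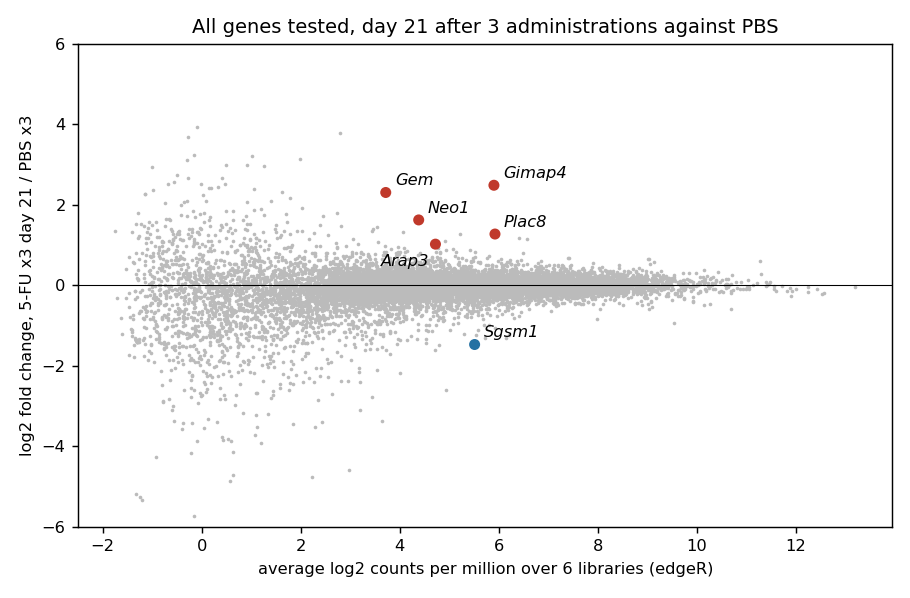
Each point is 1 of the genes tested between day 21 after 3 administrations of 5-FU and PBS. The x axis is edgeR's average log2 CPM over the 6 libraries and the y axis is the log2 fold change, cut at 6, with 16 genes beyond it. The 6 labelled genes passed the adjusted threshold of 0.05, 5 above 0 (red) and 1 below (blue), and most genes lie close to 0.

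Gem, on chromosome 4 (GRCm38, chr4:11704457-11714752), encodes an inducible small GTPase of the RGK family that acts on calcium channels and the cytoskeleton. Its normalized counts were 627, 599.6 and 629 at day 21 and 127, 119 and 128 under PBS. All 3 day 21 libraries stood far above all PBS libraries, with a mean of 619 ± 16.4 against 124 ± 4.96 (SD, n = 3 each). The log2 fold change was 2.31 ± 0.11 (SE), and the edgeR adjusted p was 0.00115. At day 6 after the third administration the 3 libraries had 1592, 2067 and 1985, so the day 21 level lay between the day 6 and the PBS levels. Gem fell from day 6 to day 21 by 1.60 on the log2 scale (edgeR adjusted p = 0.000556). It was past the threshold in all 6 fits that left out 1 of the 6 libraries, with an adjusted p of 0.0128 to 0.0216 in edgeR, and in 13 of 14 alternative settings in all.

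Neo1 (chr9:58874687-59036441) encodes neogenin, a receptor for netrins and repulsive guidance molecules that is present on HSCs. The day 21 libraries had 785, 986 and 903 normalized counts and the PBS libraries 277, 311 and 274. The groups were well separated, at 891 ± 101 and 287 ± 20.7, and the log2 fold change was 1.63 ± 0.12 with an edgeR adjusted p of 0.0155. At day 6 after the third administration the mean was 495, below day 21, and Neo1 was 0.85 higher on the log2 scale at day 21 than at day 6 (edgeR adjusted p = 0.00802). In the 3 libraries of 2-year-old mice the mean was 1275. Those libraries had 0 CPM of the Y-linked list, which every other library of the series expressed, so in each comparison with them age and sex cannot be told apart.

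Arap3, a GTPase-activating protein for small GTPases that is controlled by phosphoinositides, had 949, 1077 and 974 normalized counts at day 21 and 492, 481 and 495 under PBS. The log2 fold change was 1.02 ± 0.09 and the edgeR adjusted p 0.0272. Its mean at day 6 was 1901, and the fall from day 6 to day 21 was 0.92 on the log2 scale (edgeR adjusted p = 0.00452). As for Gem, the level at day 21 was between that of day 6 and that of PBS.

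Gimap4 (chr6:48684549-48692060) belongs to the GIMAP family, GTPases of immune cells that act in lymphocyte survival. It had 2342, 2486 and 3801 normalized counts at day 21 and 515, 629 and 384 under PBS. This was the largest fold change of the 6 genes, 2.49 ± 0.25 on the log2 scale, with a wide spread at day 21 and an edgeR adjusted p of 0.0494. Its neighbours in the same cluster of chromosome 6, looked at after the value of Gimap4 was seen, did not pass in edgeR. Gimap8 had a mean of 3248 ± 534 at day 21 and 1844 ± 321 under PBS, with no overlap and a log2 fold change of 0.81 (edgeR adjusted p = 0.145, DESeq2 adjusted p = 0.000987). Gimap1, Gimap3, Gimap5, Gimap6, Gimap7 and Gimap9 had log2 fold changes between -0.15 and 0.54, with edgeR adjusted p-values of 0.445 to 0.897.

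Plac8 (chr5:100553725-100572245) encodes a small cysteine-rich protein found in myeloid and lymphoid progenitors and interferon-treated cells. The counts were 2714, 2601 and 1982 at day 21 against 1012, 971 and 1019 under PBS, a log2 fold change of 1.28 ± 0.13 (edgeR adjusted p = 0.0494). Sgsm1 (chr5:113243220-113310786), a modulator of small G proteins, was the only gene that fell. Its 3 day 21 libraries had 777, 743 and 533 and the PBS libraries 1871, 1784 and 2015, a log2 fold change of -1.47 ± 0.15 (edgeR adjusted p = 0.0494). At day 6 Sgsm1 was scattered, at 306, 945 and 74.9.

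**Figure D2:**
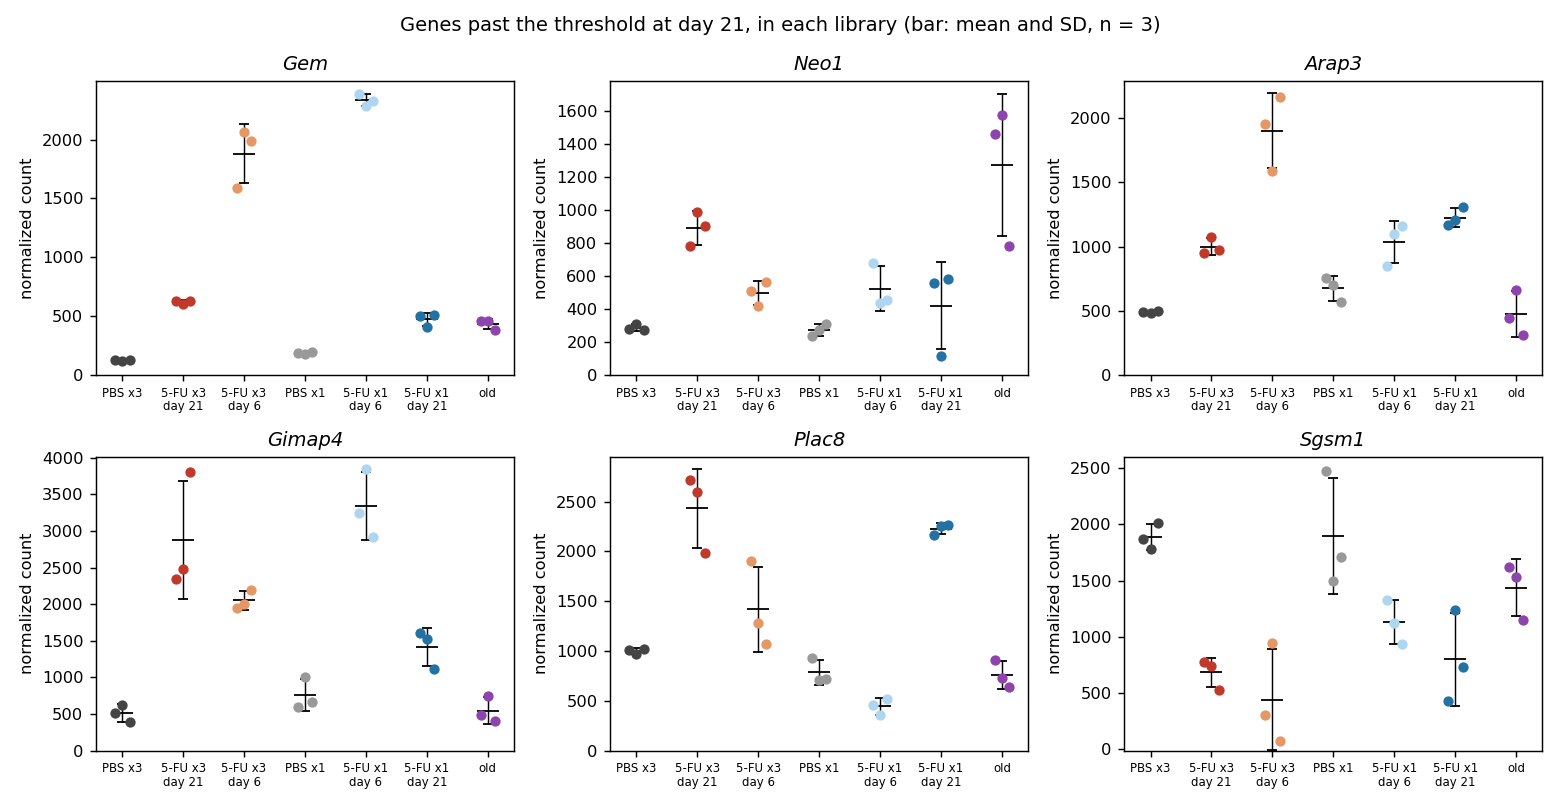
Normalized counts of the 6 genes in each of the 21 libraries, grouped by treatment, with points for libraries and bars for the mean and SD of 3 libraries. The 3 libraries at day 21 after 3 administrations lie above all 3 PBS libraries for 5 genes and below them for Sgsm1, and for Gem they lie between the PBS and day 6 libraries.

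With 3 libraries against 3, an exact two-sided permutation test of a single gene cannot give a p under 0.1, which each of the 6 genes reached. Of the other calls most were lost when a library was left out. Neo1, Plac8 and Sgsm1 each passed in 1 of the 6 fits without 1 library and Arap3 and Gimap4 in 0 of 6, with edgeR adjusted p-values up to 0.186, while their log2 fold changes kept their sign.

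The genes of antigen presentation were the group most often higher at day 21. Major histocompatibility complex (MHC) class I molecules, H2-K1, H2-D1 and the H2-Q and H2-T genes with B2m, present peptides from inside the cell. Class II molecules, H2-Aa, H2-Ab1 and H2-Eb1, present peptides taken up from outside, and Cd74 is the invariant chain that escorts them. Of 28 list members tested, 24 had a log2 fold change above 0, and in 18 all 3 day 21 libraries exceeded all 3 PBS libraries, against 0 for the opposite order. Over all genes tested, 11% were higher and 10.4% lower without overlap. The median of the list was 0.19 and that of all genes 0.000794. DESeq2 called 8 members higher and 0 lower, beside 1.79% and 2.9% of all genes in DESeq2. In edgeR 0 members were called in either direction. The unadjusted edgeR p was under 0.05 for 13 members, all higher, beside 6.2% of all genes higher and 7.46% lower.

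Class II genes share a proximal promoter module in which the Y box, bound by the factor NF-Y, lies close to the start of transcription. The promoters of H2-Aa and H2-Eb1 are shown to give the sequence context of the class II genes that were higher together, as the 250 bases before the RefSeq start in GRCm38.p6, 5′ to 3′ on the gene's strand. Capitals mark the Y box CTGATTGG.
H2-Aa, minus strand, chr17:34287824-34288073: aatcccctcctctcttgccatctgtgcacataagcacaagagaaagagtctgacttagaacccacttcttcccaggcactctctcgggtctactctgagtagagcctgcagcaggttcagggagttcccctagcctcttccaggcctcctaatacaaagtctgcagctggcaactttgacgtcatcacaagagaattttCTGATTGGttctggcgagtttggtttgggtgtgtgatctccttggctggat
H2-Eb1, plus strand, chr17:34305617-34305866: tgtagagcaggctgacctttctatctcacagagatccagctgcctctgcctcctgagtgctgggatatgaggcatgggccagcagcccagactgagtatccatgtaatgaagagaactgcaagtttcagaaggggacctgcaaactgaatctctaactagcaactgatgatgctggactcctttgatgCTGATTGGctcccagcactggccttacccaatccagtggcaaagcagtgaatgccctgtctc
Counted back from the RefSeq start, the match began at position -51 in H2-Aa and at -62 in H2-Eb1. Searched on both strands, CTGATTGG was in 8 of 23 windows of list members (34.8%) and in 1258 of 32851 windows of this length in all (3.83%). The matches were not limited to class II genes, since H2-D1, H2-Q6, H2-Q7, H2-T23 and Tap1 also had one. CTGATTGG was also in 13 of 61 windows of the G2 and mitosis list (21.3%), whose genes leaned lower at day 21. Every match also holds an inverted CCAAT box, while matches to that shorter motif alone were not counted. A match is a description of letters and not a measured binding site.

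Cd74 had 5822, 5466 and 6579 normalized counts at day 21 and 3836, 3951 and 3228 under PBS. Every day 21 library was higher, with a log2 difference of 0.69 ± 0.11 (edgeR adjusted p = 0.0862, DESeq2 adjusted p = 3.84e-06). H2-Eb1, the beta chain of I-E, had 506, 538 and 579 against 339, 349 and 290.1, a log2 difference of 0.72 ± 0.12 (edgeR adjusted p = 0.0862, DESeq2 adjusted p = 0.000487). H2-Aa and H2-Ab1, the chains of I-A, were at 716 ± 22.1 against 550.0 ± 31.5 and at 892 ± 33.7 against 710.0 ± 20.4. Neither pair of groups overlapped, and the log2 differences were 0.38 and 0.32, with edgeR adjusted p-values of 0.165 and 0.168. Ciita, the transactivator of class II genes, did not separate the groups, because PBS replicate 1 had 1194 and the others 630.4 and 530.2 against 1109 to 1348 at day 21.

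Of the class I genes, H2-K1 had 51926, 52986 and 50557 normalized counts at day 21 and 44907, 43676 and 40838 under PBS, a log2 difference of 0.26 ± 0.06 (edgeR adjusted p = 0.156, DESeq2 adjusted p = 0.00268). H2-D1 was 0.22 and B2m 0.20 higher on the log2 scale, again without overlap. H2-Q6 and H2-Q7, at 0.34 and 0.31, are near-identical copies whose reads cannot be assigned with certainty. Nlrc5, the transactivator of class I genes, was at 1411 ± 143 against 1084 ± 78.8, and Tap1, the peptide transporter, at 7483 ± 180.3 against 6672 ± 338. Cd86, a costimulatory ligand of dendritic cells, had a log2 fold change of -0.88 with overlapping groups (edgeR adjusted p = 0.513).

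**Figure D3:**
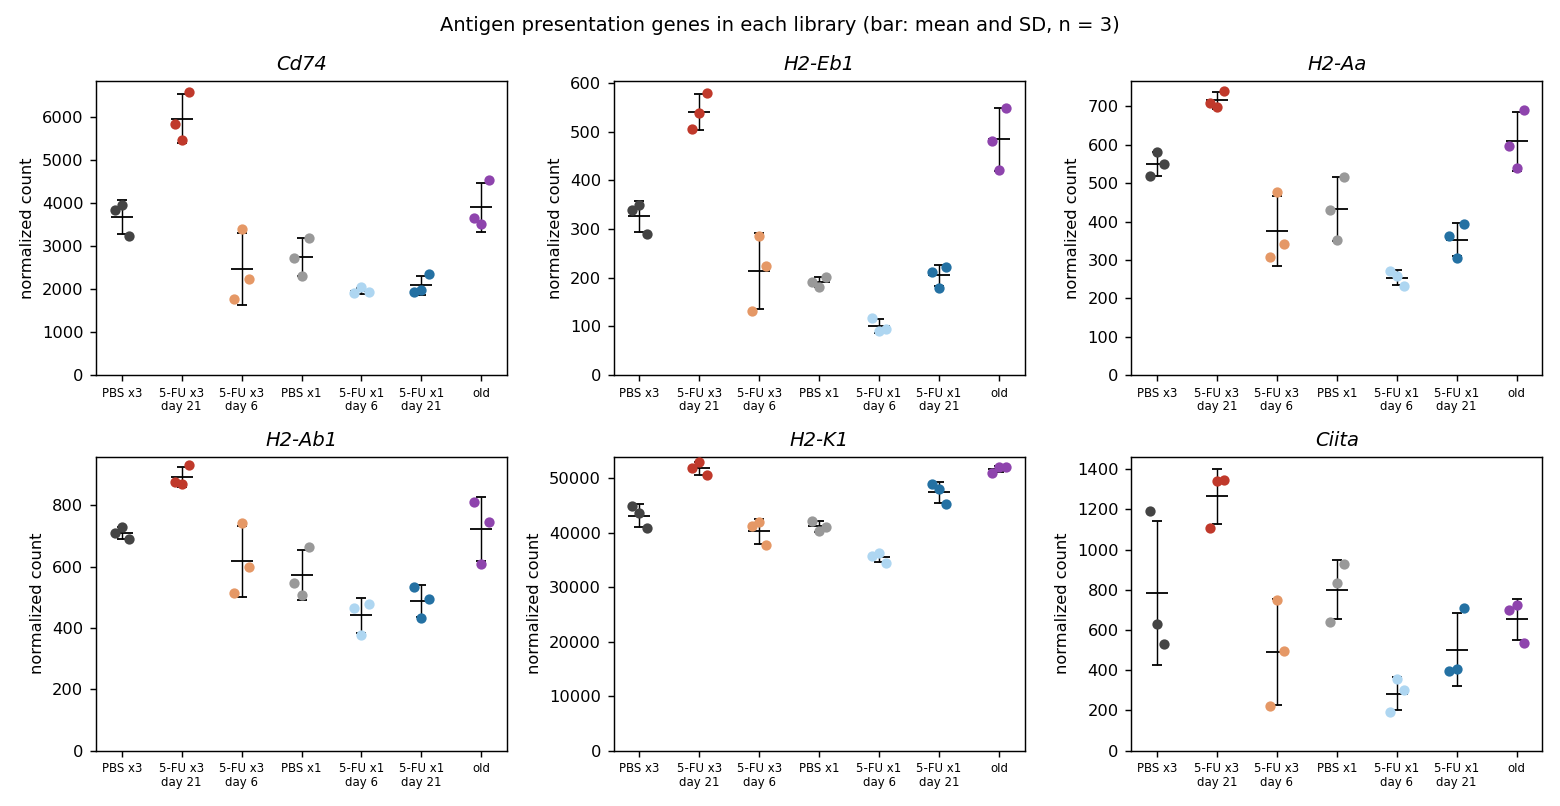
Normalized counts of 6 antigen presentation genes in each of the 21 libraries, with points for libraries and bars for the mean and SD of 3 libraries. For all but Ciita the 3 day 21 libraries after 3 administrations lie above the 3 PBS libraries beside them, and the day 6 libraries lie below day 21.

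Markers of other antigen-presenting cells were low in both groups. The monocyte, macrophage and dendritic list summed to 68.2 to 73.2 CPM at day 21 and 70.4 to 75.5 under PBS. Its median log2 level per gene, against the PBS mean, was 0.01 to 0.70 at day 21 and -0.20 to 0.14 under PBS. Of its 25 genes 11 were tested, with 1 higher (9.09%) and 1 lower (9.09%) without overlap, beside 11% and 10.4% of all genes. For comparison, the B lymphoid list summed to 34.96 to 50.04 and 47.1 to 54.6, with Pax5 at 0 in all 6 libraries. Within the first list Cd68, a lysosomal protein of macrophages, was at 266 ± 61.7 against 159 ± 24.7 without overlap (edgeR adjusted p = 0.242). Its part in the antigen presentation result was not tested. The T, NK and innate lymphoid list summed to 282 to 288 CPM at day 21 and 229 to 244 under PBS, while its defining genes Cd3e, Cd8a and Ncr1 were at 0. Gata3, which HSCs also express, is a member of that list and was at 5311 ± 34.2 against 3973 ± 107 (edgeR adjusted p = 0.0878, DESeq2 adjusted p = 5.02e-10).

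In the other groups of the series the antigen presentation genes had their lowest median levels at day 6. Against the mean of PBS given 3 times, the median log2 level of the list was 0.20 to 0.22 in the 3 day 21 libraries, -0.07 to 0.05 in the libraries of that PBS group, -0.38 to -0.15 at day 6 after 3 administrations and -0.17 to -0.07 after PBS given once, which overlapped PBS given 3 times. After a single 5-FU administration it was -0.58 to -0.48 at day 6, the lowest of the groups, and -0.03 to 0.05 at day 21. In HSCs of 2-year-old mice it was -0.01 to 0.19. Against its own control, PBS given once, the median log2 fold change at day 21 after a single administration was 0.12. In edgeR the interaction of the day 21 effects of 3 and 1 administrations called 0 of the 28 members and 0 of all 13182 genes. At an unadjusted interaction p under 0.05 in edgeR, 7 members were higher and 2 lower, beside 9.66% of all genes in either direction. DESeq2 called 2 members, beside 1.66% of all genes. From day 6 to day 21 after the third administration, 17 of the 28 members rose and 0 fell in edgeR, beside 8.68% and 10.8% of all genes. The median log2 fold change was 0.43. The sorting gate also differed between these groups, so gate and time cannot be told apart there.

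Interferon-stimulated genes showed no common direction. Of 62 members tested, 31 were above 0, with a median of 0.00. Without overlap, 11 were higher (17.7%) and 6 lower (9.68%), beside 11% and 10.4% of all genes. Of the interferon-induced GTPases in the list, Iigp1, Igtp, Irgm1 and Irgm2 had log2 differences of 0.51, 0.34, 0.22 and 0.36 without overlap (edgeR adjusted p = 0.168, 0.158, 0.348 and 0.199). Gbp2, Gbp3, Gbp6, Gbp7 and Gbp9 had overlapping groups and log2 differences from -0.28 to 0.22. The members that were lower included Irf7, the regulator of type I interferon genes, at -0.55, Ifi27 at -0.59 and Ifitm1, a membrane protein that is high in HSCs, at -0.94. Ifitm1 had 16924, 14918 and 11568 at day 21 against 25461, 25526 and 31916 under PBS, so all day 21 libraries were lower (edgeR adjusted p = 0.0964, DESeq2 adjusted p = 8.79e-07).

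Among genes of HSC surface and identity, 27 of 40 were above 0, with a median of 0.09, and 1 member, Neo1, passed in edgeR. The groups did not overlap in 11 members that were higher (27.5%) and 4 that were lower (10%), beside 11% and 10.4% of all genes. Mecom, a transcription factor required for HSC maintenance, was at 14686 ± 1968 against 10930.4 ± 203 (log2 difference 0.42, edgeR adjusted p = 0.168, DESeq2 adjusted p = 0.00793). Gfi1, a repressor that restrains HSC proliferation, was at 1111 ± 247 against 606 ± 127 (edgeR adjusted p = 0.162), and Gata2 was 0.24 higher on the log2 scale (edgeR adjusted p = 0.213). Of the surface markers, Ly6a (Sca-1) and Kit, both part of the gate, had log2 fold changes of 0.39 and 0.21 without overlap. Slamf1 (CD150) and Procr, at 0.16 and 0.11, had overlapping groups, and the edgeR adjusted p of the 4 markers was 0.251 to 0.738. From day 6 to day 21, 16 of 39 members tested rose and 0 fell in edgeR, beside 8.68% and 10.8% of all genes. Kit was among those that rose, by 0.64 on the log2 scale. The day 6 gate also took c-Kit-dim cells, so gate and time cannot be told apart in this comparison.

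Cd34, a sialomucin that is low on the most dormant HSCs, was at 8630.4 ± 643 against 11972 ± 619.9, a log2 difference of -0.48 (edgeR adjusted p = 0.1, DESeq2 adjusted p = 3.1e-06).

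Megakaryocyte and platelet genes leaned lower. HSCs include platelet-biased cells that carry some of these transcripts. Of 28 members tested, 7 were above 0, and the median was -0.23. Without overlap, 11 were lower (39.3%) and 3 higher (10.7%), beside 10.4% and 11% of all genes. In edgeR 0 were called in either direction. DESeq2 called 2 of the 28 higher and 4 lower, beside 1.79% and 2.9% of all genes in DESeq2. Mmrn1, which encodes the platelet granule protein multimerin, had 11168, 12579 and 11947 at day 21 and 18398, 18016 and 16946 under PBS, a log2 difference of -0.59 ± 0.07 (edgeR adjusted p = 0.0608, DESeq2 adjusted p = 2.47e-11). Plek, Gp1bb and Ppbp had log2 differences of -0.39, -0.72 and -1.003, without overlap and with edgeR adjusted p-values of 0.215, 0.242 and 0.328. Vwf and Selp, adhesion genes of platelets and endothelium, were higher instead. Vwf had 2162, 2099 and 2162 against 1749.6, 1625 and 1689, and Selp, which encodes P-selectin, had 1546, 1509 and 1649 against 683, 906 and 969 (log2 differences 0.34 and 0.87, edgeR adjusted p = 0.157 and 0.0862). Itga2b, the integrin CD41, had a log2 fold change of -0.10 with overlapping groups. Leaving out PBS replicate 2 moved the median of the list to -0.12.

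Genes reported as higher in HSCs of old mice were more often lower than higher at day 21. Of 47 members tested, 18 were above 0, and the median was -0.28. Without overlap, 14 were lower (29.8%) and 7 higher (14.9%), beside 10.4% and 11% of all genes. Neo1, Selp, Fyb, Nupr1 and Vwf were higher, and Fyb, an adaptor of integrin signalling, was at 3943 ± 429.8 against 2585 ± 272 (edgeR adjusted p = 0.126). Clu, the chaperone clusterin, had 142, 236 and 119.9 against 349, 405 and 519, a log2 difference of -1.36 (edgeR adjusted p = 0.145). The log2 differences of Plscr2, Alcam and Runx1t1 were -1.47, -0.84 and -0.66 (edgeR adjusted p = 0.158, 0.0964 and 0.136). The median log2 level of the list, against the mean of PBS given 3 times, was -0.31 to -0.03 at day 21 and 0.71 to 1.06 in HSCs of 2-year-old mice. It was -0.26 to -0.23 after PBS given once, within the day 21 range. With all 6 PBS libraries as the control, the median at day 21 was -0.11.

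**Figure D4:**
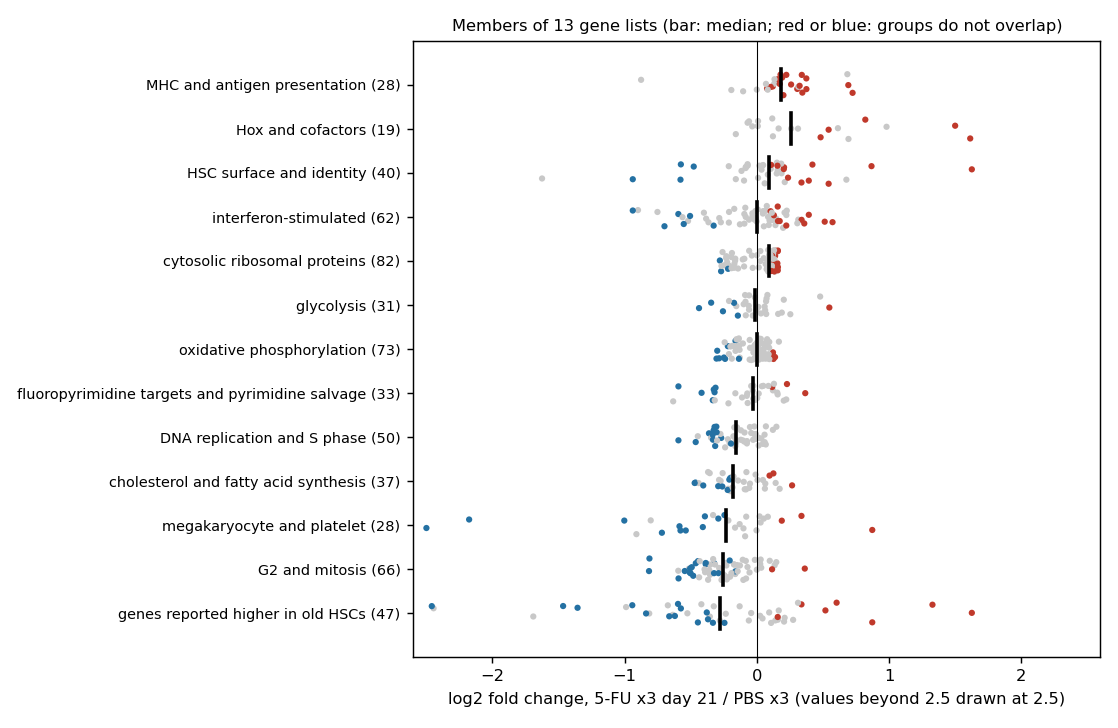
Log2 fold changes between day 21 after 3 administrations of 5-FU and PBS for the members tested of 13 lists, with the number of members in parentheses. Each point is a gene, red or blue where the 3 libraries of both groups did not overlap, and the black bar is the median, which is highest for the Hox list and lowest for the genes reported higher in old HSCs, at -0.28.

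Cell cycle genes leaned lower than under PBS rather than higher. In the list of G2 and mitosis genes, 9 of 66 members were above 0, and the median was -0.26. Without overlap, 18 were lower (27.3%) and 2 higher (3.03%), beside 10.4% and 11% of all genes. For DNA replication and S phase, 10 of 50 were above 0, with a median of -0.15 (-0.20 to -0.08 over the alternatives), 12 members lower without overlap and 0 higher. DESeq2 called 7 and 4 members lower in the 2 lists and 0 higher, beside 2.9% and 1.79% of all genes in DESeq2, and edgeR called 0. PBS replicate 2 lay within the day 21 range of the mitosis list, for which the median log2 levels against the PBS mean were -0.41 to -0.13 at day 21 and -0.18 to 0.09 under PBS. From day 6 to day 21 after the third administration, 62 of 66 mitosis genes and 44 of 50 replication genes fell in edgeR, and 0 rose. The medians were -1.18 and -0.82. Over all genes, 10.8% fell and 8.68% rose in that comparison. The day 6 gate also took c-Kit-dim cells, so gate and time cannot be told apart there.

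Prc1, a microtubule bundler of the central spindle, had 12179, 13499 and 11950.2 normalized counts at day 21 and 20713, 15755 and 18263 under PBS (log2 difference -0.55 ± 0.11, edgeR adjusted p = 0.137, DESeq2 adjusted p = 0.000365). Birc5, which encodes survivin, was at 1107 ± 139 against 1664 ± 170.4, and Hmmr, a spindle protein, at 318 ± 39.04 against 556 ± 59.8 (log2 differences -0.59 and -0.81, edgeR adjusted p = 0.145 and 0.0975). Neither gene had overlapping groups. Lig1, the replicative DNA ligase, had 4852, 4793 and 4769.9 against 7653, 6311 and 5831, and Mcm5, a subunit of the replicative helicase, had a log2 difference of -0.36 (for the 2 genes, edgeR adjusted p = 0.162 and 0.158). Mki67 had 1297 to 1527 at day 21 and 1213 to 1977 under PBS, which overlapped (log2 fold change -0.27, edgeR adjusted p = 0.575). Hmga1, a chromatin protein of proliferating cells, was at 26962 ± 1336 against 37465 ± 2344 and had been at 71483 to 89645 at day 6. Its log2 difference from PBS was -0.48 ± 0.07 (edgeR adjusted p = 0.0814, DESeq2 adjusted p = 6.59e-07). Of the CDK inhibitors, Cdkn1a and Cdkn1c had log2 fold changes of -0.55 and -0.10 with overlapping groups, and for Cdkn1c the reads of an overlapping antisense gene, Gm44732, cannot be separated without strand.

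Many mitosis genes carry a cell cycle homology region (CHR), the letters TTTGAA, near their start. The 250 bases before the start of Kif22, a chromosome-binding kinesin, are shown as an example because its counts separated the groups, with 585, 561 and 555 at day 21 and 770.4, 713 and 732 under PBS (edgeR adjusted p = 0.145). Capitals mark the 2 matches to TTTGAA on either strand, read 5′ to 3′ on the gene's strand in GRCm38.p6.
Kif22, minus strand, chr7:127042421-127042670: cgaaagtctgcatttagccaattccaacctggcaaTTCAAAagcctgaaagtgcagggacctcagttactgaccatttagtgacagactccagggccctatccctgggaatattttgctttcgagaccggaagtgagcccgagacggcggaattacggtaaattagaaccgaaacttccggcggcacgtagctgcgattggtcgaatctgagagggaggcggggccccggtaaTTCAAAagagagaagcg
TTTGAA was in 24 of 61 windows of list members (39.3%) and in 5252 of all 32851 windows (16.0%).

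**Figure D5:**
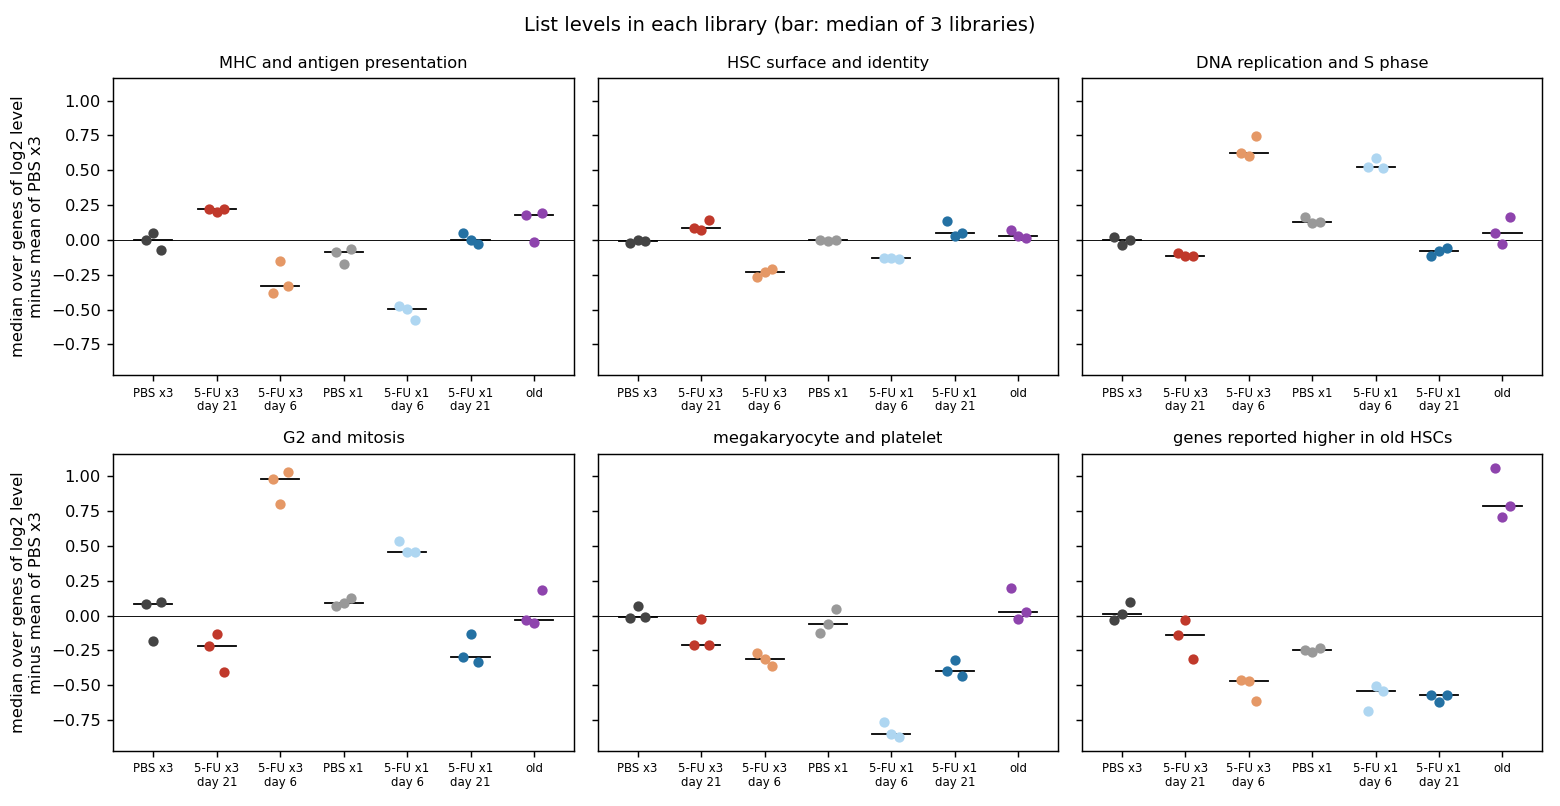
Median over the genes of a list of the log2 normalized count minus the mean of the 3 libraries of PBS given 3 times, with points for the 21 libraries and bars for the median of 3. The antigen presentation list stands at 0.20 to 0.22 at day 21 after 3 administrations, and the replication and mitosis lists, high at day 6, lie below 0, the PBS mean, in all 3 day 21 libraries.

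The genes that take up, activate or answer to fluoropyrimidines were mixed, with a median of -0.03 over 33 members tested. Slc29a1, the nucleoside transporter ENT1, had 25179.9, 22109 and 23285 normalized counts at day 21 and 32937, 32965 and 28044 under PBS. All day 21 libraries were lower (log2 difference -0.42 ± 0.09, edgeR adjusted p = 0.145, DESeq2 adjusted p = 0.00131). Umps, which converts 5-FU to its nucleotide, was at 4149.6 ± 49.4 against 5134 ± 354, and Tk1, thymidine kinase, at 1229 ± 234 against 1849 ± 246 (log2 differences -0.31 and -0.59, edgeR adjusted p = 0.177 and 0.21). Dut, which clears dUTP, and Abcg2, an efflux transporter of HSCs, both had a log2 difference of -0.33 without overlap. Cad, the first enzyme of pyrimidine synthesis, was 0.37 higher (edgeR adjusted p = 0.222). Tyms, the target of 5-FU, had 514 to 638 and 566 to 632, a log2 fold change of -0.04 (edgeR adjusted p = 0.912). Dpyd, the enzyme that degrades 5-FU, was at 0 counts in all 6 libraries.

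The glycolysis, oxidative phosphorylation and ribosomal protein lists had medians within 0.1 of that of all genes. The median log2 fold change was -0.01 for 31 glycolysis genes, -0.00 for 73 genes of oxidative phosphorylation and 0.09 for 82 cytosolic ribosomal proteins, and edgeR called 0 members in each. Day 21 replicate 3 stood apart in the last 2 lists. The ribosomal protein genes summed to 10525 CPM in it, against 15061 and 13789 in the other day 21 libraries and 14300 to 15636 under PBS, and the oxidative phosphorylation genes to 3926 against 4802 and 4771. Without that library the median of the ribosomal protein list was 0.12. Ldha, lactate dehydrogenase A, was at 21206 ± 1703 against 26848 ± 467 without overlap (log2 difference -0.35 ± 0.07, edgeR adjusted p = 0.145, DESeq2 adjusted p = 0.00067), and had been at 38048 to 40324 at day 6. Pfkfb3, the glycolytic activator that the study follows, had 4705, 5394 and 5325 against 4362, 4412 and 4708, which overlapped (log2 fold change 0.19 ± 0.08, edgeR adjusted p = 0.387). Pfkfb4, another isozyme, was at 364 ± 41.1 against 248 ± 15.6 (edgeR adjusted p = 0.168). Prmt1, the arginine methyltransferase linked to PFKFB3, had a log2 fold change of -0.12 ± 0.09 (edgeR adjusted p = 0.633), after a fall of 0.78 between day 6 and day 21 (edgeR adjusted p = 0.00221). Cholesterol and fatty acid synthesis genes stood lower, with a median of -0.18 over 37 members. Without overlap, 8 were lower (21.6%) and 3 higher (8.11%), beside 10.4% and 11% of all genes. Fdps was among the lower at -0.41 (edgeR adjusted p = 0.183), and its exons are shared in part by Gm43738. Txnip, which limits glucose uptake, had a log2 fold change of 0.16, and an antisense gene, Gm15441, overlaps it.

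The list of Hox genes and their cofactors, transcription factors that include regulators of HSC self-renewal, was above 0 in 15 of 19 cases, with a median of 0.26. Without overlap, 5 members (26.3%), all Hox genes, were higher and 0 lower, beside 11% and 10.4% of all genes. In edgeR 0 members were called in either direction. Hoxb2 had 335, 338 and 333 normalized counts at day 21 and 176, 202 and 190.0 under PBS. These narrow groups gave a log2 difference of 0.82 ± 0.13 (edgeR adjusted p = 0.0862, DESeq2 adjusted p = 0.0001), though an antisense gene, Hoxb3os, covers 27.3% of the exonic bases of Hoxb2 and the libraries did not keep strand. Hoxb6 was at 73.9 ± 5.31 against 23.95 ± 5.14. The median of this list ran from 0.01 to 0.46 over the alternatives, so its size was not well fixed.

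Of 18 imprinted genes tested, edgeR called 0, while 6 were lower (33.3%) and 1 higher (5.56%) without overlap, beside 10.4% and 11% of all genes. Snrpn had 452, 356 and 288 against 774, 1233 and 1338, a log2 difference of -1.61 ± 0.25 (edgeR adjusted p = 0.0862), and Gm38393, a gene on the same strand, covers 27.3% of its exonic bases. Dlk1, a growth regulator of fetal tissues, had 118, 28.4 and 14.7 against 273, 325 and 791 (edgeR adjusted p = 0.177). Plagl1, a zinc finger factor, was at 0 in the 3 day 21 libraries and at 221, 91.8 and 89.9 under PBS. Among genes of no list, chosen after their values were seen, Hnf4a, a nuclear receptor best known from liver, had 391.9, 132 and 201 against 1884, 1010.2 and 1515, and Ncam1, a neural adhesion molecule, had 63.3, 37.8 and 83.7 against 438, 1022 and 440.3. Their edgeR adjusted p-values were 0.0862 and 0.0648. Ephx2, epoxide hydrolase, and Dsc2, a desmosomal cadherin, were at 0 in all day 21 libraries and at 112 to 319.6 and 56.2 to 339 under PBS. Against a floor of 3 counts per library they were at least 74.8-fold lower and at least 62.8-fold lower (edgeR adjusted p = 0.0639 and 0.0964).

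Among genes chosen after their values were seen that were higher without passing in edgeR, Cd53, a leukocyte tetraspanin, had 699, 628 and 696 against 148, 335 and 321 (log2 difference 1.33, edgeR adjusted p = 0.154). Sorbs2, a cytoskeletal adaptor, was at 1493 ± 336 against 614 ± 158, and Gstm1, a glutathione transferase, at 7473 ± 357 against 5695 ± 191 (edgeR adjusted p = 0.112 for each). Hspa1a and Hspa1b, the inducible heat shock proteins, were 1.19 and 1.16 higher on the log2 scale, and as near-identical copies their reads cannot be split with certainty (edgeR adjusted p = 0.223 and 0.203). Car2, carbonic anhydrase 2, was among the lower genes, at 29118 ± 1873 against 40082 ± 3450.3 (edgeR adjusted p = 0.106, DESeq2 adjusted p = 9.54e-05).

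The effect at day 21 after 3 administrations was set against that after a single one, for which 3 libraries at day 21 were compared with 3 libraries of PBS given once. The column names of that PBS group carry a suffix that the day 21 names lack, and what the suffix marks cannot be told apart from treatment there. In that comparison 9 of 12647 genes were higher (0.0712%) and 19 lower (0.15%) in edgeR. Plac8 was 1.499 higher (edgeR adjusted p = 0.016) and Gem 1.36 higher (edgeR adjusted p = 0.0169), beside 1.28 and 2.31 after 3 administrations. Arap3 was 0.86 higher (edgeR adjusted p = 0.0584), Gimap4 0.91 and Neo1 0.62 (edgeR adjusted p = 0.15 and 0.655), and Sgsm1 was at -1.23 (edgeR adjusted p = 0.221). List medians after 1 administration were -0.34 for mitosis, -0.24 for replication, -0.28 for megakaryocyte, -0.23 for old-HSC and 0.23 for Hox genes. After 3 administrations they were -0.26, -0.15, -0.23, -0.28 and 0.26. The median of the ribosomal protein list differed in sign, at -0.15 after 1 and 0.09 after 3.

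The difference between the 2 effects was tested as an interaction over 12 libraries, and edgeR called 0 of 13182 genes (0%), with 1273 at an unadjusted p under 0.05 (9.66%), while DESeq2 called 219 (1.66%). The genes with the smallest interaction p in each direction included Cd74, for which the effect was 0.69 after 3 administrations and -0.39 after 1, a difference of 1.08 ± 0.18 (edgeR adjusted p = 0.209, DESeq2 adjusted p = 3.3e-05). Gem had a difference of 0.95 ± 0.15 (edgeR adjusted p = 0.207, DESeq2 adjusted p = 0.000223), and Wdr19, Tiam1 and Phka1 had differences of 0.85, 0.99 and 1.35. In the other direction Selp had -1.28 ± 0.19, because it was 2.16 higher after 1 administration (edgeR adjusted p = 0.00282) and 0.87 after 3. Muc13, a mucin of HSCs, had -0.50, Tubgcp2 -0.58, Nabp2 -0.61 and Trmt6 -0.76, with edgeR adjusted p-values of 0.207 to 0.211 in the interaction. The PBS levels entered these differences, since Cd74 was at 2730.3 after PBS given once and 3671 after PBS given 3 times, and Selp at 285 and 853. Wherever the 2 PBS groups are compared or pooled, they also differ in the column suffix and in age at isolation.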

How the data were processed

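HSC RNA was amplified with the SMART-Seq v4 kit and made into Nextera XT libraries, which do not keep strand, and was sequenced as single-end reads of 75 bases. The authors mapped the reads with TopHat2 (version 2.0.13) to mm10 and quantified genes with Cuffdiff (Cufflinks version 2.2.1), and deposited a table of whole-number read counts for 21000 gene symbols. The program that gave these counts is not given in the sources used here. 4528 symbols had no count in any library.

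Counts were tested as deposited with edgeR (version 4.0.16, R 4.3.3, limma 3.58.1) by TMM factors, filterByExpr and the quasi-likelihood F test, two-sided, with Benjamini-Hochberg adjustment over all genes tested and a threshold of 0.05, using only the libraries of each comparison. The interaction was fitted over the 12 libraries of both day 21 groups and both PBS groups. DESeq2 (version 1.42.0) was an alternative, as were relative log expression factors, library size alone, looser and stricter count filters, a replicate block, a joint model of all 21 libraries, a control made of all 6 PBS libraries and leaving out each library. The fits were tested on simulated counts. "Without overlap" means that all 3 libraries of a group exceeded all 3 of the other.

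The members and the 39 gene lists were chosen with earlier results of these data known. Genes were named as up to 15 per direction, by size of change, among those past the threshold (with a mean of at least 100 normalized counts and no overlap), up to 4 members past the threshold per list and direction, the 5 with the smallest interaction p in each direction, and a fixed set (Kit, Ly6a, Slamf1, Procr, Cd48, Cd34, Flt3, Mki67, Pfkfb3, Prmt1, Cdkn1a, Cdkn1c, Itga2b, Vwf and Txnip, with 1 more that is not reported here). All other genes were named after their values were seen. Gene positions are those of GENCODE vM21, to which 20499 symbols (97.6%) matched, and promoter sequences are from RefSeq (GRCm38.p6). The libraries of a group came from independent experiments. Whether libraries with the same replicate number were paired was checked by the correlation of their deviations from the group means, which was -0.0271, 0.0274 and -0.0207, so the numbers were not treated as pairs. With so few libraries a group, this check cannot exclude pairing.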

Additional observations from a re-analysis of the deposited data

Results flagged for a closer look

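Nabp2, Tiam1 and Trmt6, named for their small interaction p, moved in opposite directions at day 21 after 3 administrations and after 1, with all 3 treated libraries on one side of the 3 PBS libraries in each case. Over all genes, 147 of 12420 (1.18%) showed such opposite directions, and edgeR's interaction test passed for 0 of them.

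Nabp2, a single-stranded DNA binding protein of DNA repair, had log2 fold changes of -0.28 after 3 administrations and 0.33 after 1, a difference of -0.61 (edgeR adjusted p = 0.211, DESeq2 adjusted p = 6.17e-07). Trmt6, a subunit of a tRNA methyltransferase, had -0.40 and 0.37, a difference of -0.76 (edgeR adjusted p = 0.209, DESeq2 adjusted p = 1.3e-05). Tiam1, an exchange factor for Rac, had 0.62 and -0.37, a difference of 0.99 (edgeR adjusted p = 0.207, DESeq2 adjusted p = 0.00014). The PBS groups differed for all 3 genes, with means after PBS given 3 times and once of 2181 and 1715 for Nabp2, 3595 and 2812 for Trmt6, and 514 and 715 for Tiam1. The part of the PBS groups in these differences was not tested.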

How the results depend on the processing

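The number of genes called at day 21 against PBS given 3 times, 6 in edgeR, was 6 with all genes of at least 1 count, 3 with relative log expression factors, 15 with library size alone (6 higher and 9 lower), 23 with at least 10 counts in every library, 131 with all 6 PBS libraries as control, 193 with all 21 libraries in a single fit and 592 in DESeq2. Leaving out 1 library gave 1 to 4. Of the genes in the lists, 2 were called, against 4 with library size alone, 4 with the stricter filter, 31 with all 6 PBS libraries, 38 with all 21 libraries and 99 in DESeq2, and 1 to 2 without 1 library. The 6 genes called in edgeR were picked by that fit, so their number could only fall in other settings. Of these, 3 passed with relative log expression factors and 1 to 3 without 1 library. From day 6 to day 21 after 3 administrations 2450 genes were called, 1351 to 1744 without 1 library, and library size alone turned 1089 higher and 1361 lower into 1701 higher and 977 lower. The interaction, with 0 calls, gave 219 in DESeq2, 3 with all 21 libraries and 0 to 1 without 1 library. The comparison after a single administration, with 28 calls, gave 85 with library size alone, 725 in DESeq2, 300 with all 21 libraries and 1 to 32 without 1 library. The cause of these differences was not tested.

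With the replicate number as a block, 0 genes were called at day 21 against PBS, 0 in the lists and 0 of the 6 genes called without the block. The block gave 3 calls after a single administration, 2071 from day 6 to day 21 and 0 in the interaction. The block removes residual degrees of freedom, and whether the replicate numbers pair the libraries is not known from the labels. The cause of the lost calls was not tested.

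Medians of 18 of the 39 lists changed sign under at least 1 alternative, among them the interferon, fluoropyrimidine, oxidative phosphorylation and DNA repair lists and all lists of mature cell types but the megakaryocyte list. Against PBS given 3 times, 4 named genes near 0 changed sign. Cdkn1c was at 0.00026 without day 21 replicate 1 (-0.15 to 0.00026 over the fits without 1 library) and Gimap9 at -0.0085 (-0.0085 to 0.10). Phka1 was at -0.0888 and Wdr19 at -0.0276 with all 6 PBS libraries. With 3 libraries a group, 25285301 to 31724107 counts per library and PBS isolated at day 6 alone, small changes of low genes could not be shown, and treatment, age and time since injection cannot be told apart.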

Other observations

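The list of HSC surface and identity genes and the list of epigenetic regulators were both more often higher than lower at day 21. Of 41 epigenetic regulators tested, 29 were above 0, with a median log2 fold change of 0.07. Without overlap, 10 were higher (24.4%) and 4 lower (9.76%), beside 11% and 10.4% of all genes. Here edgeR called 0 and DESeq2 called 1 in each direction, beside 1.79% of all genes higher and 2.9% lower in DESeq2. The median ran from 0.03 to 0.14 over the alternatives, and the level of this list after PBS given once, 0.09 to 0.12 against PBS given 3 times, lay within the day 21 range of 0.03 to 0.18. Cytosolic ribosomal protein genes lay in a narrow band, from -0.28 to 0.16, with 14 of 82 higher and 3 lower without overlap, although their summed level was lowest, at 10525 CPM, in day 21 replicate 3. Antioxidant and NRF2 genes had a median of -0.06 over 40 members, with 5 higher (12.5%) and 10 lower (25%) without overlap. For p53 and its targets the median was -0.09 over 36 members, with 4 higher (11.1%) and 5 lower (13.9%) without overlap. For DNA repair the median was -0.06 over 64, with 6 higher (9.38%) and 7 lower (10.9%) without overlap. It changed sign over the alternatives (-0.08 to 0.0026). Both lists were near the shares of all genes, 11% higher and 10.4% lower.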
